A study of Mus musculus with 16 samples.

Results

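The genes described here are 32 genes of the ATF4 program and of cellular amino acid supply. They were chosen by symbol from a list, with earlier results of these data known. They were read across 16 bulk RNA libraries of murine gingival fibroblasts (mGF), which are cells of gum connective tissue cultured from explants. The table of 56941 genes held 33 rows with 1 of these symbols, since Ddit3 was listed under a pair of Ensembl identifiers, and the second Ddit3 row had 0 counts in every library. All 32 members passed the filter on low counts, among 16306 genes that did. The list held 6 transcription factors and cofactors, 6 stress effectors and feedback regulators, 12 enzymes of amino acid and one-carbon metabolism, 6 amino acid transporters and 2 secreted or surface proteins.

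The cells were primary mGF, used at passage 2 to 8, from the gingiva round the second upper molar of wild-type C57Bl6 mice aged 3 to 6 months with no engineered allele. They were kept for 24 h in 1 of 4 conditions with 4 libraries each. BSA (control) received the fatty acid carrier alone. IL-1β cells received the cytokine at 1 ng/mL, palmitate cells received the saturated fatty acid at 200 µM on BSA, and palmitate + IL-1β cells received both at the same doses. Libraries are numbered 1 to 4 for BSA, 5 to 8 for IL-1β, 9 to 12 for palmitate and 13 to 16 for both agents. Nothing in the sources says that the libraries came from separate animals or cultures, so p-values measure the spread between these libraries, which may be technical.

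ATF4 is a transcription factor made mainly when the kinases PERK, GCN2, PKR or HRI phosphorylate eIF2α. General protein synthesis then slows, while ribosomes that pass the upstream reading frames of the Atf4 message translate its coding frame. ATF4 protein therefore can change without its mRNA, and only mRNA was measured here. With C/EBP partners the factor binds composite C/EBP-ATF sites and turns on genes that take up and make amino acids, charge tRNAs and, through a feedback loop, dephosphorylate eIF2α.

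Short promoter stretches are shown because a composite C/EBP-ATF site is the feature by which many of these genes are known to be ATF4 targets. The letters TGATGNAAN were searched on both strands from 250 bases before to 50 bases after the start of each gene's canonical transcript (GENCODE vM39, GRCm39). They were found at 6 of 32 members (18.8%) and at 831 of 21667 protein-coding genes (3.84%). Each stretch is given 5′ to 3′ on the strand that carries the motif, in lower case with the matched letters in capitals, in the order of the members' names.
Chac1: ctggcaggagTGATGCAACggcagggaag
Ddit3: ggggcggggaTGATGCAATgtttggcaac
Got1: gaggcttgtaTGATGCAACcaatgcaatg
Gpt2: atggctgggaTGATGAAACtcaaggcgaa
Pycr1: gccctgtgtaTGATGCAATgcacaaggct
Vldlr: ctaggagcgcTGATGCAACtattgctgct

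Positions from the transcript start are those of the motif base farthest upstream in the direction of the gene. The genes Got1 and Pycr1 lie on the minus strand and the others on the plus strand. The Chac1 stretch lies at chr2:119181519-119181547 on the minus strand, with its motif at -160 from the transcript start, in an exon of another Chac1 transcript. That of Ddit3 is at chr10:127126350-127126378 on the minus strand, at -200, in an intron of another Ddit3 transcript and in exons of the long noncoding genes Gm4189 (minus strand) and Gm66222 (plus strand). The Got1 stretch is at chr19:43513129-43513157 on the plus strand, at -78 and in an exon of another transcript. For Gpt2 the stretch is at chr8:86218829-86218857 on the plus strand, at -149 and in an exon of another transcript. The Pycr1 stretch is at chr11:120534659-120534687 on the minus strand, at -79 and in an intron of another transcript. Vldlr has its stretch at chr19:27194209-27194237 on the minus strand, at -193, in an exon of another transcript and in an intron of the long noncoding gene Gm50114 (minus strand).

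RefSeq lists transcript starts of its own, and a gene may have several windows there rather than that of the canonical start alone. The shares of the window sets are therefore not directly comparable, and why they differ was not tested. On the GRCm38.p6 build, 28 members had an entry in RefSeq windows of the same size. Of these, 8 (28.6%) held the letters in any window, against 1215 of 27025 genes (4.5%). Chac1, Got1, Pycr1 and Vldlr were found in both window sets, and 4 members were found in the RefSeq windows alone. Their stretches are the following.
Asns: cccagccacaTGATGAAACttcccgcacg
Nupr1: aagccctgtcTGATGCAATctggcccttt
Slc1a4: aggctggagaTGATGCAACgcaggaggca
Trib3: cccgcccggcTGATGTAAAcctgagctaa
On GRCm38.p6 these are at chr6:7693214-7693242 (minus strand), chr7:126625563-126625591 (plus), chr11:20332700-20332728 (plus) and chr2:152344029-152344057 (plus). A match is a description of the letters and was not tested as a binding site, and a window without the letters says nothing about binding elsewhere.

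Counts on genes ranged from 21234789 to 92752515 per library with a median of 27943964.5. The highest total belonged to palmitate replicate 10, and the other 15 libraries held at most 35329711. All 8 fibroblast markers, among them Col1a1 and Pdgfra, were detected and summed to between 28180 and 33350 CPM, counts scaled to a common library size. They were uneven, with Col1a1 at 13210 to 15640 CPM and Lum at only 0.700 to 2.27 CPM, as low as the other cell types' sums. Keratinocyte markers summed to at most 0.728 CPM, leukocyte markers to at most 1.68 CPM and endothelial markers to at most 2.25 CPM. The fibroblast marker sum was 31220 to 33100 CPM in BSA, 32830 to 33350 in IL-1β, 28900 to 30960 in palmitate and 28180 to 30150 in palmitate + IL-1β, and its part in the results was not tested. Mitochondrial genes took 12.2% to 13.4% of the counts in BSA, 11.4% to 14.0% in IL-1β, 11.9% to 13.2% in palmitate and 10.7% to 11.5% in palmitate + IL-1β. The libraries with both agents were thus all below those of BSA and of palmitate, which moves with every comparison of both agents with those groups, and its part in them was not tested. In bulk RNA, fewer cells of a type and less RNA per cell cannot be told apart.

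Levels are CPM on scaled library sizes, given as mean ± SD of 4 libraries, and changes are log2 fold changes ± SE from edgeR's quasi-likelihood fit of all 16 libraries. A gene is said to have risen or fallen where its Benjamini-Hochberg adjusted p over the 16306 genes was under 0.05. All comparisons against BSA share the 4 BSA libraries. Per kilobase of transcript, the highest member in BSA was Atf5 at 195 ± 6.88 RPKM, followed by Atf4 at 171 ± 3.66 and Slc3a2 at 105 ± 3.56. At the low end were Stc2 at 1.99 ± 0.077 RPKM and Cbs at 0.0857 ± 0.029 RPKM.

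In palmitate against BSA, 15 members rose, 3 fell and 14 did not pass the test. Among all 16306 genes 19.8% rose and 17.5% fell (3228 and 2855 genes, or 2402 and 4064 under upper-quartile scaling). The median log2 fold change was 0.103 for the members and -0.003 for all genes. Cebpb alone changed more than 2-fold. Under upper-quartile scaling, which moved the median of all genes by -0.069 on the log2 scale, 10 members rose and 5 fell. The rises lost were those of Ppp1r15a, Asns, Mthfd2, Got1 and Slc1a5, and the falls gained were those of Atf5 and Gpt2. With each library left out in turn, 11 to 16 members rose and 3 fell. The 11 were reached without BSA replicate 1 or BSA replicate 2, where 2828 and 2857 of all genes rose. Without palmitate replicate 10, the deepest library, 12 members and 2841 of all genes rose.

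In IL-1β against BSA, 10 members rose and 1 fell, against 10.1% and 4.97% of all genes (1654 and 810 genes). Upper-quartile scaling gave 10 and 3 members, and 1192 and 1551 genes. With both agents against BSA, 18 members rose and 5 fell, against 24.8% and 22.5% of all genes (4041 and 3664 genes). Upper-quartile scaling gave 13 and 8 members, and 3115 and 4938 genes. Beside palmitate alone, palmitate + IL-1β had 9 members higher and 1 lower (5.71% and 4.1% of all genes). Beside IL-1β alone it had 16 higher and 4 lower (18.9% and 16.1%).

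**Figure D1:**
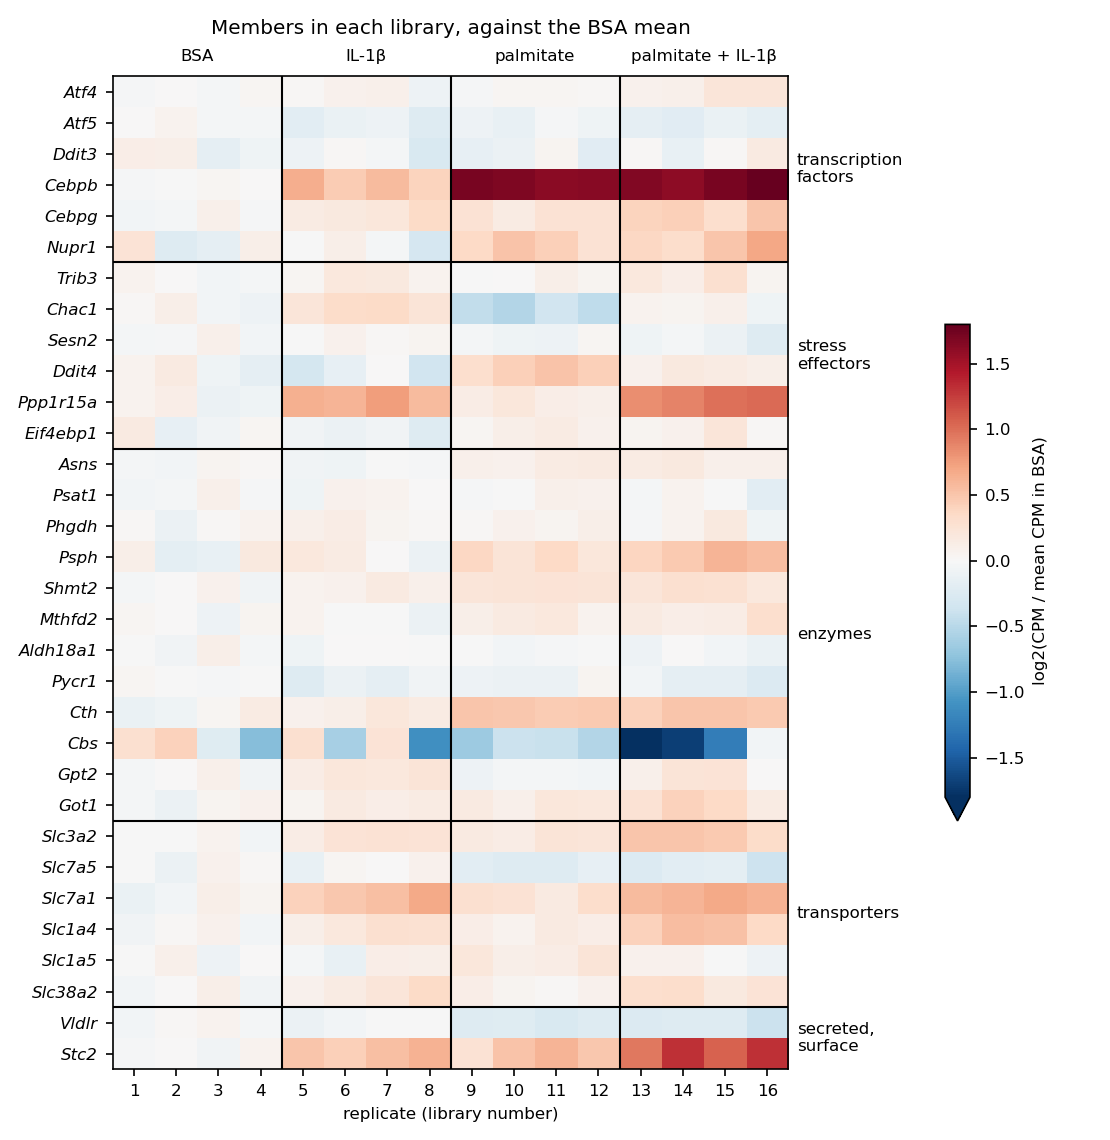
Heat map of the 32 members (rows, grouped by role) in the 16 libraries (columns, by condition). Colour is the log2 of the library's CPM over the mean CPM of the 4 BSA libraries, and 1 value, Cbs in palmitate + IL-1β replicate 13, lies under the end of the scale. Cebpb is the row with the strongest colour in palmitate, Ppp1r15a and Stc2 are each stronger with both agents than with either alone, and Chac1 changes colour between IL-1β and palmitate.

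Of the 6 transcription factors and cofactors 3 rose and 0 fell with palmitate, 2 rose and 1 fell with IL-1β, and 4 rose and 1 fell with both agents. The shares risen were 50%, 33.3% and 66.7%, against 19.8%, 10.1% and 24.8% of all genes. The shares fallen were 0%, 16.7% and 16.7%, against 17.5%, 4.97% and 22.5%. Atf4 mRNA, the message of the factor itself, was 294, 299.9, 289.9 and 304 CPM in the BSA libraries and 294, 304, 305 and 302 CPM in palmitate, and these ranges overlapped. The difference was 0.021 ± 0.044 on the log2 scale (adjusted p = 0.758), with a 95% interval of -0.070 to 0.11, so palmitate alone gave no detectable change in Atf4 mRNA. IL-1β libraries held 302, 313, 318 and 279 CPM, a difference of 0.029 ± 0.044 on the log2 scale (adjusted p = 0.731). With both agents the values were 313, 316, 345 and 345 CPM, all above the BSA libraries, and Atf4 rose by 0.15 ± 0.044 on the log2 scale (adjusted p = 0.00605). Under upper-quartile scaling that adjusted p was 0.189.

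Ddit3 encodes CHOP, the C/EBP family factor linked to cell death under lasting ER stress. It stood at 65.8, 65.5, 54.0 and 57.4 CPM in BSA, 57.2, 61.3, 59.2 and 50.3 in IL-1β, 54.8, 56.2, 62.6 and 52.6 in palmitate and 61.4, 55.6, 61.7 and 67.6 with both agents. The ranges of the conditions overlapped, and in none of the 7 comparisons did Ddit3 pass the test. Its difference was -0.10 ± 0.074 on the log2 scale (adjusted p = 0.311) with palmitate, with a 95% interval of -0.26 to 0.053, and 0.019 ± 0.074 on the log2 scale (adjusted p = 0.859) with both agents, with an interval of -0.14 to 0.17. Exons of Mars1 on the opposite strand cover 64.1% of the exonic length of Ddit3, and the authors' counting used strand.

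Cebpb encodes C/EBPβ, a partner of ATF4 that is also an inflammatory factor. Its libraries held 40.8, 41.2, 42.4 and 41.5 CPM in BSA, 65.2, 56.8, 61.2 and 55.0 in IL-1β, 136, 133, 128 and 129 in palmitate and 132, 126, 136 and 143 with both agents. The palmitate libraries were all above those of IL-1β, which were all above those of BSA. Cebpb rose by 1.67 ± 0.049 on the log2 scale (adjusted p = 7.46e-23) with palmitate, a 3.17-fold change, by 0.52 ± 0.050 on the log2 scale (adjusted p = 2.35e-09) with IL-1β and by 1.69 ± 0.049 on the log2 scale (adjusted p = 3.51e-23) with both. Adding IL-1β to palmitate gave a difference of 0.028 ± 0.046 on the log2 scale (adjusted p = 0.792). The interaction of the agents, which asks whether the palmitate effect differs with and without IL-1β, was -0.49 ± 0.068 on the log2 scale (adjusted p = 9.95e-06). It was the single member past the threshold for the interaction (0 higher and 1 lower, against 0.159% and 1.83% of all genes).

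Cebpg, another C/EBP partner of ATF4, rose from 82.5 ± 3.85 CPM to 96.8 ± 3.86 with palmitate (log2 fold change 0.23 ± 0.049, adjusted p = 0.000352), to 95.9 ± 6.05 with IL-1β (log2 fold change 0.22 ± 0.049, adjusted p = 0.00197) and to 109.6 ± 5.91 with both (log2 fold change 0.41 ± 0.049, adjusted p = 2.43e-08). The level with both agents was above that of palmitate alone (log2 fold change 0.18 ± 0.049, adjusted p = 0.0133), a call lost without palmitate replicate 10 or palmitate + IL-1β replicate 16 (adjusted p up to 0.0792). Nupr1, a small stress-induced chromatin cofactor, was 81.6, 58.5, 61.5 and 73.9 CPM in BSA and 88.6, 98.0, 93.1 and 82.2 in palmitate. Its palmitate libraries were all higher, the lowest by less than 1 CPM, and Nupr1 rose by 0.40 ± 0.12 on the log2 scale (adjusted p = 0.0188). Without a filter on low counts, or without BSA replicate 2, BSA replicate 3 or palmitate replicate 10, the call was lost (adjusted p up to 0.064). Nupr1 was 66.4 ± 7.54 CPM with IL-1β (log2 fold change -0.054 ± 0.12, adjusted p = 0.824) and 96.0 ± 11.5 with both agents, where it rose by 0.48 ± 0.12 on the log2 scale (adjusted p = 0.00479).

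Atf5 encodes another translationally controlled factor, known for the mitochondrial stress response. It fell from 355 ± 12.5 CPM to 319 ± 14.7 with IL-1β (log2 fold change -0.15 ± 0.042, adjusted p = 0.0108) and to 317 ± 7.86 with both agents (log2 fold change -0.16 ± 0.042, adjusted p = 0.00203). The IL-1β call had an adjusted p of 0.0501 without BSA replicate 2. With palmitate alone Atf5 was 336 ± 11.6 CPM (log2 fold change -0.080 ± 0.042, adjusted p = 0.141).

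**Figure D2:**
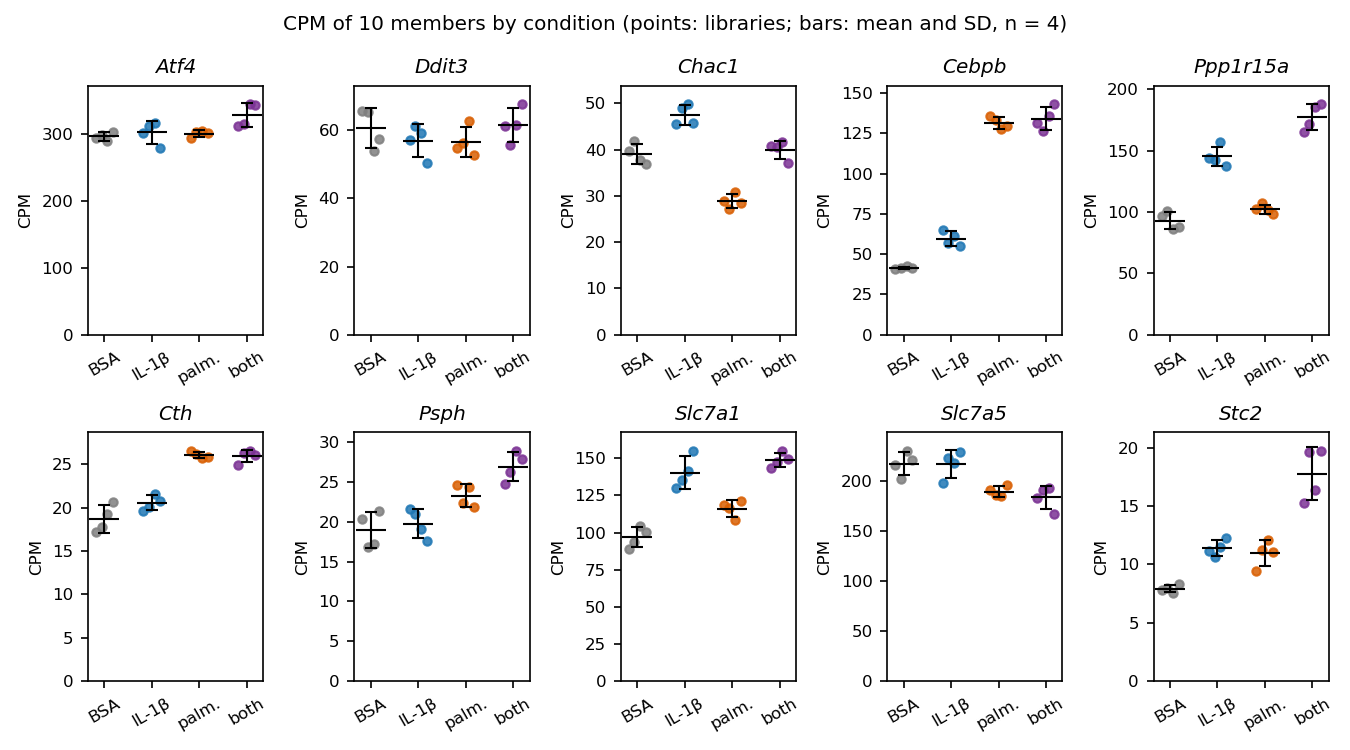
CPM of 10 members in each library (points) of BSA, IL-1β, palmitate (palm.) and both agents, with the mean and SD of 4 libraries and axes from 0. Atf4 and Ddit3 overlap between BSA and palmitate, Chac1 is lowest with palmitate and highest with IL-1β, and Cebpb separates BSA, IL-1β and palmitate.

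Of the 6 stress effectors 2 rose and 1 fell with palmitate, and 2 rose and 0 fell both with IL-1β and with both agents. The share risen was 33.3% each time, against 19.8%, 10.1% and 24.8% of all genes. The shares fallen were 16.7%, 0% and 0%, against 17.5%, 4.97% and 22.5%. Chac1 moved in opposite directions with the single agents. It encodes an enzyme that breaks down glutathione and is among the best known ATF4 targets. Its libraries held 39.8, 41.9, 37.7 and 36.8 CPM in BSA, 45.5, 49.0, 49.8 and 45.9 in IL-1β, 28.9, 27.2, 30.9 and 28.5 in palmitate and 40.8, 40.5, 41.6 and 37.1 with both agents. The palmitate libraries were all below, and the IL-1β libraries all above, the BSA libraries, while those with both agents lay among them. Chac1 fell with palmitate (log2 fold change -0.44 ± 0.054, adjusted p = 5.97e-08), rose with IL-1β (log2 fold change 0.28 ± 0.053, adjusted p = 0.000232) and differed from BSA by 0.034 ± 0.053 on the log2 scale (adjusted p = 0.634) with both agents. Palmitate against IL-1β differed by -0.73 ± 0.054 on the log2 scale (adjusted p = 2.29e-12), and adding IL-1β to palmitate raised Chac1 by 0.48 ± 0.054 on the log2 scale (adjusted p = 1.31e-07). The interaction did not pass the test (log2 fold change 0.19 ± 0.076, adjusted p = 0.295).

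Ppp1r15a encodes GADD34, which brings a phosphatase to eIF2α and so closes the feedback loop. It was 96.6, 100.4, 86.0 and 87.9 CPM in BSA, 144, 142, 157 and 138 in IL-1β, 102, 107, 101 and 98.3 in palmitate and 166, 172, 185 and 188 with both. The libraries with IL-1β, with or without palmitate, were all above the others. Ppp1r15a rose by 0.65 ± 0.052 on the log2 scale (adjusted p = 4.54e-11) with IL-1β and by 0.94 ± 0.052 on the log2 scale (adjusted p = 6.17e-16) with both agents, and the level with both was above that of palmitate (log2 fold change 0.79 ± 0.052, adjusted p = 1.04e-12) and of IL-1β (log2 fold change 0.29 ± 0.051, adjusted p = 3.49e-05). The rise with palmitate alone was 0.14 ± 0.052 on the log2 scale (adjusted p = 0.0317), with overlapping libraries. That call was lost under upper-quartile scaling, under both other filters on low counts, and without BSA replicate 3 or 4 or palmitate replicate 9 or 10, with an adjusted p of up to 0.286.

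Ddit4 and Sesn2 encode stress-induced restraints of the growth kinase complex mTORC1. Ddit4 was 41.0, 43.8, 37.1 and 35.2 CPM in BSA and 48.2, 52.6, 56.3 and 52.6 in palmitate, with every palmitate library higher, and rose by 0.42 ± 0.070 on the log2 scale (adjusted p = 2.96e-05). With both agents it was 41.4, 44.5, 43.7 and 42.4 CPM (log2 fold change 0.13 ± 0.070, adjusted p = 0.138 against BSA), below every palmitate library (log2 fold change -0.29 ± 0.069, adjusted p = 0.00721). IL-1β alone gave 34.2 ± 3.99 CPM (log2 fold change -0.19 ± 0.072, adjusted p = 0.0732). Sesn2 stayed between 51.5 and 64.2 CPM over the 16 libraries and passed no test against BSA. Its difference was -0.042 ± 0.047 on the log2 scale (adjusted p = 0.521) with palmitate and -0.11 ± 0.047 on the log2 scale (adjusted p = 0.0544) with both agents. The latter was called lower in 9 of 22 alternatives, 5 of which left out BSA replicate 1 or 2, IL-1β replicate 7, or palmitate + IL-1β replicate 13 or 14, and 4 of which changed the scaling or the filter on low counts. Its level with both agents was below that with IL-1β (log2 fold change -0.15 ± 0.047, adjusted p = 0.0156), a call lost without IL-1β replicate 6 or palmitate + IL-1β replicate 16 (adjusted p up to 0.0801).

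Trib3, a pseudokinase that binds ATF4 and restrains it, was 72.8 ± 2.52 CPM in BSA and 74.8 ± 2.48 in palmitate (log2 fold change 0.039 ± 0.049, adjusted p = 0.58, 95% interval -0.061 to 0.14). It rose with both agents to 81.6 ± 5.63 CPM (log2 fold change 0.16 ± 0.048, adjusted p = 0.00557), though not under upper-quartile scaling (adjusted p = 0.149). Eif4ebp1, which encodes a repressor of cap-dependent translation, was 55.7 ± 5.17 CPM in BSA and 59.2 ± 2.00 in palmitate (log2 fold change 0.088 ± 0.057, adjusted p = 0.234). Eif4ebp1 was higher with palmitate than with IL-1β (log2 fold change 0.20 ± 0.057, adjusted p = 0.00693) and passed no test against BSA. Transcripts of other genes share 17.8% of its sequence.

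**Figure D3:**
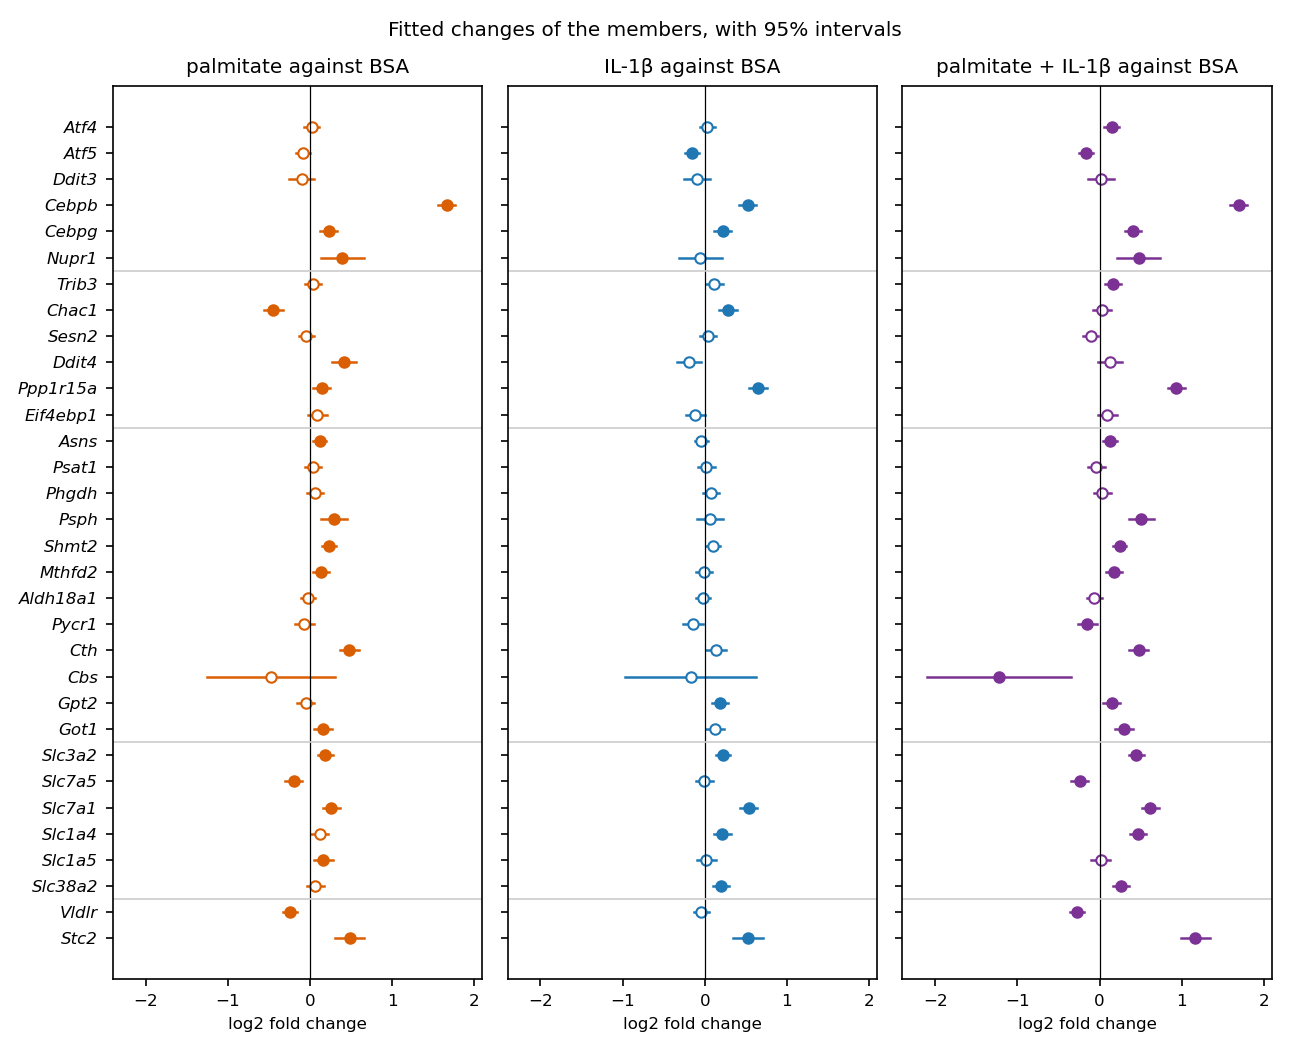
Log2 fold change of each member (points) with its 95% interval (lines) for palmitate, IL-1β and palmitate + IL-1β against BSA, with filled points for genes past the threshold. The axis runs from lower to higher and members are grouped by role. The points above 1 are Cebpb with palmitate and with both agents, and Stc2 with both agents.

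Of the 12 enzymes, 6 rose with palmitate and none fell, 1 rose with IL-1β and none fell, and 7 rose and 2 fell with both agents. The shares risen were 50%, 8.33% and 58.3%, against 19.8%, 10.1% and 24.8% of all genes. The shares fallen were 0%, 0% and 16.7%, against 17.5%, 4.97% and 22.5%. Of the enzymes, Cth rose most with palmitate. It encodes the last enzyme of transsulfuration, which makes cysteine. Cth stood at 17.1, 17.7, 19.2 and 20.7 CPM in BSA and 26.5, 26.1, 25.7 and 25.8 in palmitate, with no overlap, and rose by 0.48 ± 0.058 on the log2 scale (adjusted p = 4.8e-08). With both agents it was 25.0, 26.3, 26.5 and 26.0 CPM (log2 fold change 0.48 ± 0.058, adjusted p = 4.13e-08), and with IL-1β alone 20.5 ± 0.868 CPM (log2 fold change 0.14 ± 0.060, adjusted p = 0.123). Cbs, which catalyses the preceding step, was near the floor of counting at 0.651, 0.711, 0.458 and 0.315 CPM in BSA, 0.340, 0.408, 0.404 and 0.370 in palmitate and 0.0567, 0.166, 0.225 and 0.516 with both agents. A count of 3 corresponds to 0.0331 to 0.146 CPM per library. Cbs fell with both agents (log2 fold change -1.22 ± 0.43, adjusted p = 0.0196), but the libraries overlapped, and the call was lost without BSA replicate 1 or 2 or palmitate + IL-1β replicate 13 or 14 (adjusted p up to 0.0976).

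The serine pathway runs from Phgdh through Psat1 to Psph, and of these 3 genes Psph passed the test. Psph was 20.4, 16.8, 17.3 and 21.4 CPM in BSA, 24.6, 22.4, 24.4 and 21.9 in palmitate and 24.8, 26.2, 28.9 and 27.9 with both agents. Each palmitate library was above each BSA library. Psph rose by 0.29 ± 0.075 on the log2 scale (adjusted p = 0.00252) with palmitate and by 0.51 ± 0.075 on the log2 scale (adjusted p = 1.51e-06) with both agents, while IL-1β gave 0.060 ± 0.077 on the log2 scale (adjusted p = 0.675). Phgdh was 91.2 ± 4.51 CPM in BSA and 95.4 ± 2.38 in palmitate (log2 fold change 0.065 ± 0.048, adjusted p = 0.313, 95% interval -0.033 to 0.16). Its value is uncertain, because transcripts of 9 other genes cover 84.6% of its sequence at 95% identity or more. Psat1 was 116 ± 5.53 and 118 ± 4.80 CPM (log2 fold change 0.036 ± 0.050, adjusted p = 0.615, 95% interval -0.065 to 0.14). Neither Phgdh nor Psat1 passed the test in any of the 7 comparisons, though Psat1 was called lower with both agents under upper-quartile scaling.

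In the mitochondrial folate pathway, which takes one-carbon units from serine, Shmt2 was 87.3, 90.4, 94.8 and 86.0 CPM in BSA and 104, 105, 106 and 105 in palmitate. Its palmitate libraries were all higher, and Shmt2 rose by 0.23 ± 0.041 on the log2 scale (adjusted p = 2.86e-05) with palmitate and by 0.24 ± 0.041 on the log2 scale (adjusted p = 1.01e-05) with both agents. Mthfd2, which oxidises those units, rose from 102 ± 4.10 to 112 ± 4.46 CPM with palmitate (log2 fold change 0.13 ± 0.047, adjusted p = 0.0261) and to 115 ± 7.13 with both agents (log2 fold change 0.18 ± 0.047, adjusted p = 0.00204). Its palmitate call was lost under upper-quartile scaling, under both other filters on low counts, and without BSA replicate 1, 2 or 3 or palmitate replicate 10 or 11 (adjusted p up to 0.31). The call with both agents was lost under upper-quartile scaling (adjusted p = 0.0789).

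Asns, the asparagine synthetase and a classic readout of amino acid shortage, was 222, 221, 237 and 233 CPM in BSA, 219, 215, 228 and 225 in IL-1β, 242, 240.4, 252 and 256 in palmitate and 253, 257, 243 and 244 with both agents. The palmitate libraries lay just above those of BSA, and Asns rose by 0.12 ± 0.040 on the log2 scale (adjusted p = 0.0201), with a 95% interval of 0.036 to 0.20. With both agents it rose by 0.13 ± 0.040 on the log2 scale (adjusted p = 0.0096). The palmitate call was lost under upper-quartile scaling (adjusted p = 0.337), without a filter on low counts, and without BSA replicate 1 or 2 or palmitate replicate 11 or 12. The call with both agents was lost in the same alternatives and without BSA replicate 1 or 2 or palmitate + IL-1β replicate 13 or 14 (adjusted p up to 0.319).

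The transaminase Got1 rose from 48.7 ± 2.89 to 54.5 ± 2.01 CPM with palmitate (log2 fold change 0.16 ± 0.054, adjusted p = 0.0182) and to 60.0 ± 4.94 with both agents (log2 fold change 0.30 ± 0.054, adjusted p = 2.2e-05). The palmitate call was lost under upper-quartile scaling and without BSA replicate 1 or 2 or palmitate replicate 11 (adjusted p up to 0.177). Gpt2, the mitochondrial alanine transaminase, was the enzyme that rose with IL-1β, from 60.0 ± 2.74 to 68.3 ± 1.95 CPM (log2 fold change 0.19 ± 0.049, adjusted p = 0.00794). It was 57.9 ± 0.876 CPM with palmitate (log2 fold change -0.051 ± 0.049, adjusted p = 0.451), and palmitate against IL-1β differed by -0.24 ± 0.049 on the log2 scale (adjusted p = 0.000301). With both agents Gpt2 rose by 0.15 ± 0.049 on the log2 scale (adjusted p = 0.0135), a call lost under upper-quartile scaling, without a filter on low counts, and without BSA replicate 1 or palmitate + IL-1β replicate 14 or 15 (adjusted p up to 0.246).

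Neither proline enzyme rose in any comparison. Aldh18a1, which makes the precursor of proline, was 105 ± 5.42 CPM in BSA and 103 ± 1.46 in palmitate (log2 fold change -0.020 ± 0.043, adjusted p = 0.758, 95% interval -0.11 to 0.067) and passed no test in the 7 comparisons, though it was called lower with both agents under upper-quartile scaling. Pycr1, which completes the pathway, was 23.9 ± 0.438 CPM in BSA, 22.9 ± 1.29 in palmitate (log2 fold change -0.067 ± 0.057, adjusted p = 0.387) and 21.5 ± 1.17 with both agents, where it fell by 0.15 ± 0.057 on the log2 scale (adjusted p = 0.0317). That call was lost without BSA replicate 1 or palmitate + IL-1β replicate 15 or 16 (adjusted p up to 0.106).

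Among the 6 transporters 3 rose and 1 fell with palmitate, 4 rose with IL-1β, and 4 rose and 1 fell with both agents. The shares risen were 50%, 66.7% and 66.7%, against 19.8%, 10.1% and 24.8% of all genes. The shares fallen were 16.7%, 0% and 16.7%, against 17.5%, 4.97% and 22.5%. Slc7a1, a carrier of arginine and lysine, was 89.2, 93.9, 104 and 100.4 CPM in BSA, 129.7, 135, 142 and 155 in IL-1β, 119, 116, 108 and 121 in palmitate and 143, 148, 155 and 149.5 with both. The BSA libraries were all the lowest. Slc7a1 rose by 0.26 ± 0.053 on the log2 scale (adjusted p = 0.000162) with palmitate, by 0.53 ± 0.053 on the log2 scale (adjusted p = 4.31e-09) with IL-1β and by 0.62 ± 0.052 on the log2 scale (adjusted p = 1.75e-11) with both, and IL-1β gave a higher level than palmitate (log2 fold change -0.27 ± 0.052, adjusted p = 0.000116, palmitate minus IL-1β).

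Slc3a2 and Slc7a5 encode the heavy and the light chain of the large neutral amino acid exchanger. Slc3a2 was 268, 266, 281 and 259 CPM in BSA, 300.5, 294, 316 and 313 in palmitate and 378, 379, 371 and 338 with both agents, and it rose by 0.19 ± 0.044 on the log2 scale (adjusted p = 0.00108) with palmitate and by 0.45 ± 0.044 on the log2 scale (adjusted p = 5.13e-10) with both. With IL-1β it rose by 0.22 ± 0.044 on the log2 scale (adjusted p = 0.000489). Slc7a5 was 216, 202, 229.8 and 221 CPM in BSA, 191, 185, 184 and 196 in palmitate and 183, 191, 193 and 167 with both agents. The palmitate libraries all lay under the lowest BSA value, and Slc7a5 fell with palmitate (log2 fold change -0.20 ± 0.050, adjusted p = 0.00181) and with both agents (log2 fold change -0.24 ± 0.050, adjusted p = 0.000145). IL-1β alone gave a difference of -0.0032 ± 0.050 on the log2 scale (adjusted p = 0.979).

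Slc1a4, a carrier of small neutral amino acids, rose from 91.9 ± 4.33 CPM to 107 ± 6.44 with IL-1β (log2 fold change 0.22 ± 0.049, adjusted p = 0.00224) and to 127 ± 8.26 with both agents (log2 fold change 0.47 ± 0.049, adjusted p = 1.71e-09). With palmitate alone it was 99.7 ± 2.64 CPM and did not pass the test (log2 fold change 0.12 ± 0.049, adjusted p = 0.0611). Slc38a2, a sodium-coupled carrier that adapts to amino acid shortage, rose from 235 ± 12.8 CPM to 270.1 ± 22.0 with IL-1β (log2 fold change 0.20 ± 0.050, adjusted p = 0.00544) and to 282 ± 12.0 with both (log2 fold change 0.26 ± 0.050, adjusted p = 5.66e-05), and was 246 ± 7.14 with palmitate (log2 fold change 0.066 ± 0.050, adjusted p = 0.329). The glutamine carrier Slc1a5 rose from 41.7 ± 2.25 to 46.9 ± 1.88 CPM with palmitate (log2 fold change 0.16 ± 0.056, adjusted p = 0.0213), a call lost under upper-quartile scaling and without BSA replicate 1 or 3 or palmitate replicate 9 or 12 (adjusted p up to 0.188). With both agents Slc1a5 was 42.1 ± 2.34 CPM (log2 fold change 0.014 ± 0.057, adjusted p = 0.861).

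Stc2 encodes stanniocalcin 2, a secreted glycoprotein. It was 7.81, 7.98, 7.55 and 8.28 CPM in BSA, 11.2, 10.6, 11.5 and 12.3 in IL-1β, 9.47, 11.2, 12.1 and 11.1 in palmitate and 15.3, 19.7, 16.4 and 19.7 with both agents. All 4 libraries with both agents were above all others, and all BSA libraries were below all others. Stc2 rose by 0.48 ± 0.089 on the log2 scale (adjusted p = 5.23e-05) with palmitate, by 0.53 ± 0.091 on the log2 scale (adjusted p = 7.47e-05) with IL-1β and by 1.16 ± 0.086 on the log2 scale (adjusted p = 7.09e-13) with both, and the level with both was above that with palmitate (log2 fold change 0.68 ± 0.083, adjusted p = 4.18e-07) and with IL-1β (log2 fold change 0.64 ± 0.084, adjusted p = 2.71e-07). The interaction on the log2 scale did not pass the test (log2 fold change 0.16 ± 0.12, adjusted p = 0.745). Vldlr, the surface receptor for very low density lipoprotein, was 126, 132, 136 and 126 CPM in BSA and 111, 111, 108 and 110.3 in palmitate, all lower. Vldlr fell with palmitate (log2 fold change -0.24 ± 0.043, adjusted p = 3e-05) and with both agents (log2 fold change -0.27 ± 0.043, adjusted p = 2.93e-06), and IL-1β gave -0.040 ± 0.043 on the log2 scale (adjusted p = 0.595).

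Directly compared, palmitate was above IL-1β for 10 members and below it for 7, against 16.5% and 15.2% of all genes. The largest differences toward palmitate were those of Cebpb (log2 fold change 1.14 ± 0.048, adjusted p = 2.31e-18) and Ddit4 (log2 fold change 0.61 ± 0.071, adjusted p = 2.04e-07), and toward IL-1β those of Chac1 (log2 fold change -0.73 ± 0.054, adjusted p = 2.29e-12) and Ppp1r15a (log2 fold change -0.50 ± 0.052, adjusted p = 2.8e-09). Of these 17 calls 5, those of Psph, Shmt2, Mthfd2, Slc1a5 and Slc38a2, were lost in at least 1 alternative. For Slc1a5 (log2 fold change 0.15 ± 0.057, adjusted p = 0.0478) and Slc38a2 (log2 fold change -0.13 ± 0.050, adjusted p = 0.0406) the adjusted p reached 0.218 and 0.23. The Slc1a5 call was lost in 14 of the 22 alternatives, 9 of which left out 1 library (BSA replicate 1 or 4, IL-1β replicate 5 or 6, palmitate replicate 9, 11 or 12, or palmitate + IL-1β replicate 13 or 14), and the Slc38a2 call without IL-1β replicate 7 or 8 or palmitate replicate 10, 11 or 12. The Psph and Mthfd2 calls were each lost without IL-1β replicate 7 or 8, and also without palmitate replicate 9 or 11 (Psph) or 10 or 11 (Mthfd2), with adjusted p up to 0.0842 and 0.0828.

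Palmitate + IL-1β against IL-1β raised Cebpb (log2 fold change 1.17 ± 0.048, adjusted p = 1.01e-18), Nupr1 (log2 fold change 0.53 ± 0.12, adjusted p = 0.00354), Psph (log2 fold change 0.44 ± 0.075, adjusted p = 2.02e-05) and Cth (log2 fold change 0.34 ± 0.058, adjusted p = 2.54e-05), and lowered Chac1 (log2 fold change -0.25 ± 0.053, adjusted p = 0.000348), Slc7a5 (log2 fold change -0.24 ± 0.050, adjusted p = 0.000271) and Vldlr (log2 fold change -0.23 ± 0.043, adjusted p = 5.54e-05). Atf4 was higher too (log2 fold change 0.12 ± 0.044, adjusted p = 0.0345), but its libraries overlapped and the call was lost in 11 of 22 alternatives, with adjusted p up to 0.15. Those that left out 1 library were without BSA replicate 1 or 2, IL-1β replicate 5 or 8, or palmitate + IL-1β replicate 15 or 16. The Got1 call (log2 fold change 0.18 ± 0.054, adjusted p = 0.00936) was lost without palmitate + IL-1β replicate 14 (adjusted p = 0.0813).

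The promoter letters can be set beside these changes. Over the 10 members with a match in either window set, the median log2 fold change with palmitate was -0.006, with 3 risen and 2 fallen. It was 0.138 over the other 22 members, with 12 risen and 1 fallen. Of these, Cth, Eif4ebp1, Slc1a5 and Slc7a5 had no RefSeq window and were searched in the GENCODE window alone. Cth and Slc1a5 were among the risen, and Slc7a5 was the 1 fallen. Among all 16306 genes the median was -0.003, with 19.8% risen and 17.5% fallen. With both agents the medians were 0.137 and 0.165, against 0.002 over all genes. These medians are descriptions and were not tested.

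**Figure D4:**
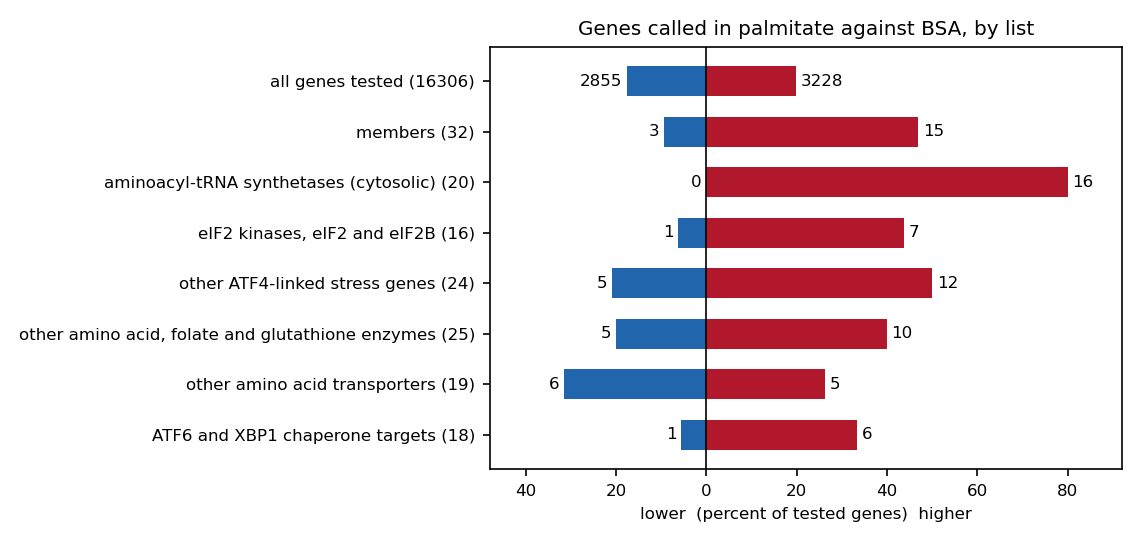
Percent of the tested genes of each list that rose (right, red) or fell (left, blue) in palmitate against BSA, with the number of genes at the end of each bar and the number tested in brackets. Cytosolic aminoacyl-tRNA synthetases reach 80% risen with 0 fallen, beside 19.8% and 17.5% of all genes tested.

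Further genes of the pathway were read from 6 lists of 125 genes that leave out the members. They are described by counts beside those of all genes. Because the lists were chosen with earlier results of these data known, their shares are descriptions and were not tested. The shares of all 16306 genes that rose and fell were 19.8% and 17.5% with palmitate, 10.1% and 4.97% with IL-1β, and 24.8% and 22.5% with both agents. The cytosolic aminoacyl-tRNA synthetases join amino acids to their tRNAs, and several are known ATF4 targets. With palmitate 16 of 20 rose (80%, against 19.8% of all genes) and 0 fell, with a median log2 fold change of 0.162, against -0.003 over all genes. Under upper-quartile scaling 8 rose and 1 fell. The synthetases with the smallest p were Rars1 (64.0 ± 6.05 to 96.1 ± 3.09 CPM, log2 fold change 0.59 ± 0.059, adjusted p = 3.34e-09), Lars1 (178 ± 2.89 to 224 ± 7.01 CPM, log2 fold change 0.33 ± 0.039, adjusted p = 2.67e-08) and Kars1 (80.3 ± 4.76 to 106 ± 5.17 CPM, log2 fold change 0.40 ± 0.049, adjusted p = 6.41e-08). With both agents 15 rose (75%, against 24.8%) and 1 fell. With IL-1β 6 rose (30%, against 10.1%) and 1 fell. These 7 IL-1β calls numbered 2 to 4 in every alternative scaling and filter and in the compared libraries alone, and 6 with DESeq2. They numbered 2 without BSA replicate 2 or IL-1β replicate 7, 3 without BSA replicate 1 or palmitate + IL-1β replicate 13, and 4 without BSA replicate 3, IL-1β replicate 5 or 6, palmitate replicate 10 or palmitate + IL-1β replicate 14.

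The list of eIF2 kinases, eIF2 and its exchange factor eIF2B holds the sensors upstream of ATF4, but not these alone. It also counts Ppp1r15b, Eif2a, Gcn1 and Impact, of which Ppp1r15b and Impact rose with palmitate. Of its 16 genes 7 rose and 1 fell with palmitate (6 and 2 under upper-quartile scaling), 3 rose with IL-1β (1 under upper-quartile scaling and without BSA replicate 1 or 2), and 7 rose with both (6, with 3 fallen, under upper-quartile scaling). The shares risen were 43.8% with palmitate, 18.8% with IL-1β and 43.8% with both, against 19.8%, 10.1% and 24.8% of all genes. Impact, which encodes an inhibitor of GCN2 activation, went from 246 ± 18.8 to 336 ± 5.32 CPM with palmitate (log2 fold change 0.45 ± 0.047, adjusted p = 2.51e-09) and to 385 ± 16.9 with both (log2 fold change 0.64 ± 0.047, adjusted p = 4.58e-13). The eIF2B subunit Eif2b3 went from 15.0 ± 0.713 to 21.2 ± 1.54 CPM (log2 fold change 0.50 ± 0.061, adjusted p = 6.58e-08). Eif2s1, which encodes eIF2α itself, went from 142 ± 11.2 to 186 ± 6.24 CPM (log2 fold change 0.38 ± 0.050, adjusted p = 1.84e-07). The kinase genes are named after their values were seen. With palmitate Eif2ak2 (PKR) rose by 0.83 ± 0.0805 on the log2 scale (adjusted p = 2.21e-07) and Eif2ak3 (PERK) by 0.15 ± 0.046 (adjusted p = 0.00874). Eif2ak1 (HRI, -0.027 ± 0.044, adjusted p = 0.679) and Eif2ak4 (GCN2, 0.016 ± 0.058, adjusted p = 0.865) did not pass the test with palmitate.

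Other amino acid transporters moved both ways. With palmitate 5 of 19 tested rose and 6 fell, with IL-1β 5 rose, and with both agents 8 rose and 4 fell (6 and 6 under upper-quartile scaling). The shares with palmitate were 26.3% risen and 31.6% fallen, against 19.8% and 17.5% of all genes. With both agents they were 42.1% and 21.1%, against 24.8% and 22.5%. Of the genes fallen with palmitate, Slc38a4 (0.91 ± 0.21 to 0.235 ± 0.12 CPM) and Slc7a8 (1.15 ± 0.38 to 0.396 ± 0.25 CPM) came close to the floor of 3 counts. Slc38a9 was near the threshold (adjusted p = 0.0492), and Slc1a3, Slc7a7 and Slc36a4 also fell. Slc7a11, the light chain of the cystine-glutamate exchanger that pairs with Slc3a2, went from 49.0 ± 4.36 CPM in BSA to 258 ± 22.4 in IL-1β, 382 ± 17.8 in palmitate and 762 ± 89.1 with both agents. Slc7a11 rose by 2.40 ± 0.086 on the log2 scale (adjusted p = 9.93e-13) with IL-1β, by 2.96 ± 0.087 on the log2 scale (adjusted p = 9.16e-15) with palmitate and by 3.96 ± 0.090 on the log2 scale (adjusted p = 1.56e-16) with both, each larger than the change of any member in that comparison. Its interaction was -1.40 ± 0.11 on the log2 scale (adjusted p = 4.15e-07). The arginine carrier Slc7a2 went from 8.63 ± 0.185 to 56.2 ± 3.68 CPM with palmitate (log2 fold change 2.705 ± 0.065, adjusted p = 3.03e-25), and the neutral amino acid carrier Slc43a2 from 47.0 ± 3.38 to 106 ± 3.52 CPM (log2 fold change 1.17 ± 0.053, adjusted p = 3.39e-18).

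Among other enzymes of amino acids, folate and glutathione, 10 of 25 tested rose and 5 fell with palmitate (9 and 7 under upper-quartile scaling), 5 rose and 5 fell with IL-1β, and 11 rose and 6 fell with both agents. The shares were 40% risen and 20% fallen with palmitate (19.8% and 17.5% of all genes), 20% each way with IL-1β (10.1% and 4.97%) and 44% and 24% with both (24.8% and 22.5%). Gclm and Gclc, the subunits of the enzyme that limits glutathione synthesis, went from 89.8 ± 4.63 to 256 ± 11.3 CPM (log2 fold change 1.51 ± 0.044, adjusted p = 5.36e-23) and from 81.6 ± 4.47 to 157 ± 4.04 CPM (log2 fold change 0.94 ± 0.042, adjusted p = 3.74e-18) with palmitate. Both genes are also known targets of the antioxidant factor NRF2. Ass1, which makes argininosuccinate, went from 153 ± 3.62 to 199 ± 7.15 CPM (log2 fold change 0.38 ± 0.042, adjusted p = 8.3e-09).

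The list of other ATF4-linked stress genes had 12 of 24 risen and 5 fallen with palmitate, 9 risen and 2 fallen with IL-1β, and 17 risen and 4 fallen with both agents. The shares risen were 50%, 37.5% and 70.8%, against 19.8%, 10.1% and 24.8% of all genes. Cebpd, a C/EBP factor of inflammation, went from 2.88 ± 0.770 to 19.5 ± 1.12 CPM (log2 fold change 2.76 ± 0.11, adjusted p = 9.11e-20) with palmitate. The autophagy receptor Sqstm1 (log2 fold change 1.22 ± 0.048, adjusted p = 1.19e-19) and the haem-degrading enzyme Hmox1 (log2 fold change 0.89 ± 0.047, adjusted p = 2.49e-16) also rose. A place on this list does not show that ATF4 moved a gene, and which factor did so was not tested. A further 3 genes are named after their values were seen, since they are widely read as ATF4 outputs. Atf3 was 5.18 ± 0.563 CPM in BSA, 5.92 ± 0.468 in palmitate (log2 fold change 0.17 ± 0.091, adjusted p = 0.145), 21.7 ± 0.630 in IL-1β (log2 fold change 2.07 ± 0.081, adjusted p = 6.51e-19) and 20.0 ± 1.18 with both (log2 fold change 1.95 ± 0.081, adjusted p = 3.3e-19). The stress hormone gene Gdf15 was 0.905 ± 0.254 CPM in BSA, 1.05 ± 0.239 in palmitate (log2 fold change 0.29 ± 0.22, adjusted p = 0.334), 1.99 ± 0.332 in IL-1β (log2 fold change 1.12 ± 0.21, adjusted p = 0.000245) and 2.00 ± 0.165 with both (log2 fold change 1.13 ± 0.21, adjusted p = 3.47e-05). Fgf21, another stress hormone gene, was 0.658 ± 0.186 CPM in BSA, 0.260 ± 0.0608 in palmitate (log2 fold change -1.44 ± 0.33, adjusted p = 0.000824), 1.29 ± 0.225 in IL-1β (log2 fold change 0.97 ± 0.27, adjusted p = 0.0113) and 0.774 ± 0.273 with both (log2 fold change 0.22 ± 0.28, adjusted p = 0.547). In palmitate its level was close to the floor of 3 counts (0.0331 to 0.146 CPM per library).

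ER chaperones and folding factors controlled by ATF6 and XBP1, the other arms of the ER stress response, had 6 of 18 risen and 1 fallen with palmitate, 1 risen and 1 fallen with IL-1β, and 6 risen and 2 fallen with both agents. The shares risen were 33.3%, 5.56% and 33.3%, against 19.8%, 10.1% and 24.8% of all genes. Without BSA replicate 2, 3 rose with both agents. Without IL-1β replicate 8, 4 changed with IL-1β. Upper-quartile scaling gave 3 risen with palmitate, and 2 risen and 4 fallen with both. The co-chaperone Dnajb9 (log2 fold change 0.27 ± 0.046, adjusted p = 2.26e-05) and Atf6 itself (log2 fold change 0.27 ± 0.049, adjusted p = 3.89e-05) rose with palmitate, and Edem1, which sends misfolded proteins to degradation, fell (log2 fold change -0.26 ± 0.053, adjusted p = 0.000184).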

How the data were processed

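Bulk RNA of mGF was sequenced in 16 libraries, 4 per condition. Per the submitters' processing notes, the authors used Trimmomatic 0.39 for trimming, STAR 2.7.10a for alignment to GRCm39 and HTSeq 2.0.9 for counting by strand, and the deposited values are raw counts per gene. The 5 summary rows (18.3% to 21.4% of each library) were left out. A stranded total RNA kit is named in the labels, whereas the methods of the study describe oligo(dT) priming, and this decides which RNAs were captured. Counts were compared with edgeR 4.0.16 (R 4.3.3; glmQLFit with robust estimation, glmQLFTest) after TMM scaling and filterByExpr (minimum count 10, minimum total 15), with a mean per condition, and p-values were adjusted over all 16306 genes. Replicate pairs differed by 2.53 to 17.6 chi-square per degree of freedom, so none was a copy. RPKM used the canonical transcript length. A floor of 3 counts was 0.0331 to 0.146 CPM, for counting error only.

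The members and lists were chosen with earlier results of these data known. Every member is named, and from each further list the 3 genes with the smallest p in palmitate against BSA. Atf3, Gdf15, Fgf21, the eIF2 kinase genes, Ppp1r15b, Eif2a, Gcn1 and the fallen genes among the other transporters were added after their values were seen. The alternatives were DESeq2 1.42.0, its size factors in edgeR, upper-quartile scaling, no filter, at least 10 counts in every library, the compared libraries alone and leaving out each library in turn. RefSeq promoter windows were added after the data were seen. Annotation was GENCODE vM39 on GRCm39, where 32 of 32 members and 125 of 125 further genes were found by identifier. The steps were tested on simulated data.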

Additional observations from a re-analysis of the deposited data

Results flagged for a closer look

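Cebpb was flagged because the palmitate effect differed with and without IL-1β, with an interaction of -0.49 on the log2 scale (edgeR adjusted p = 9.95e-06). Chance flags about 1 in 20 groups of 4 libraries as holding a library far from the others, and 6 of 132 groups were flagged. Cebpg was 91.0 CPM in palmitate replicate 10, and 98.4 to 99.2 CPM in the other palmitate libraries. Pycr1 was 24.8 CPM in palmitate replicate 12, and 22.1 to 22.4 CPM in the others. Sesn2 was 64.2 CPM in BSA replicate 3, and 58.7 to 59.6 CPM in the others. Vldlr was 99.3 CPM in palmitate + IL-1β replicate 16, and 109.2 to 111 CPM in the others. The counts on genes were 31314557 in IL-1β replicate 7, with at most 25347673 in the others, and 92752515 in palmitate replicate 10, with at most 27076430 in the others.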

How the results depend on the processing

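No paired analysis was possible because the conditions share no replicate number. Over the 7 comparisons no member value called in the main fit or in an alternative reversed direction between them. Of 100 member calls 76 held in every alternative while 24 were lost in at least 1. Of the 124 uncalled values 19 passed the threshold in some alternative, and 46 changed sign in at least 1. DESeq2 gave no adjusted p for Cbs in palmitate + IL-1β against palmitate, and the interaction could not be fitted to the compared libraries alone. The median library held 27943964.5 counts on genes, and Cbs, at under 1 CPM, is the member limited by depth.

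Under upper-quartile scaling the fallen members numbered 5 rather than 3 with palmitate, 3 rather than 1 with IL-1β and 8 rather than 5 with both agents. With palmitate it gave 8 risen and 1 fallen synthetase (16 and 0 before), 3 risen ATF6 and XBP1 targets (6) and 2 fallen eIF2 genes (1). With IL-1β it called 3 synthetases (7), 5 ATF6 and XBP1 targets (2) and 1 eIF2 gene (3). With both agents it gave 2 risen and 4 fallen ATF6 and XBP1 targets (6 and 2) and 3 fallen eIF2 genes (0).

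Other settings moved few counts. Synthetases called with IL-1β numbered 4 with DESeq2's size factors, 2 without a filter, 4 with at least 10 counts in every library and 3 in the compared libraries alone. Fallen eIF2 genes with both agents numbered 1, 1, 3 and 1 in the same order, and DESeq2 gave 0 with palmitate. Requiring at least 10 counts in every library gave 1 fallen synthetase with palmitate and 2 fallen other transporters with both agents. Without a filter 2 members fell with IL-1β, and in the compared libraries alone 2 members were lower with both agents than with palmitate. The causes were not tested.

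With each library left out in turn, fallen members with IL-1β ranged from 0 to 2. With IL-1β the synthetases called ranged from 2 to 7, the ATF6 and XBP1 targets from 2 to 4 and the eIF2 genes from 1 to 4. Fallen synthetases with palmitate ranged from 0 to 1 and fallen eIF2 genes from 0 to 1. With both agents risen ATF6 and XBP1 targets ranged from 3 to 6 and fallen eIF2 genes from 0 to 2.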
